A study of Rattus norvegicus with 3 samples.

Results

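The 47 genes described here code for the subunits of the receptors for glutamate and GABA. They were chosen by gene symbol alone, out of 29772 genes counted, and comprise 4 AMPA, 7 NMDA, 5 kainate, 2 delta and 8 metabotropic glutamate receptor genes, 16 GABA-A and 3 GABA-rho subunit genes and 2 GABA-B genes. Their RNA was followed over the progenitors and neurons of wild-type rat embryonic cerebral cortex, dissociated with papain and counted cell by cell in 3 droplet libraries labelled E14, E16 and E18, for embryonic days 14, 16 and 18. Each label has 1 library, so no difference between labels has a replicate check, no p-value is given, and every interval below covers counting error only. Neither the number of embryos behind a library nor the rat strain is given in the labels, and the labels' protocol also describes cultured cells sorted for a human surface antigen, which does not describe fresh rat tissue.

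AMPA, NMDA and kainate receptors are cation channels opened by glutamate, and the metabotropic receptors act through G proteins. GABA-A receptors are chloride channels assembled from alpha, beta and usually gamma subunits, and GABA-B receptors are G protein-coupled. In embryonic cortex GABA depolarises progenitors and young neurons because their internal chloride is high, and both transmitters are known to act on cortical progenitors and migrating neurons before synapses form. Radial glia are the stem cells lining the ventricle, intermediate progenitors are their dividing daughters, and excitatory neurons arise from both.

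After a filter of at least 1000 genes and at most 10% mitochondrial UMIs (unique molecular identifiers, 1 per captured RNA molecule) and removal of predicted doublets, 4286 cells remained of the 7100 barcodes of the library labelled E14, 4977 of 6707 in that labelled E16 and 5431 of 6937 in that labelled E18. The 3 files held 62740631, 80974234 and 73727823 UMIs, and 12 to 17 barcodes were shared by any pair of libraries. Clusters were named from marker lists, with each name meaning only that the cells resemble that class, and the 47 genes took no part in the clustering. Cells of the libraries labelled E14, E16 and E18 numbered 424, 2189 and 1917 in radial glia, 429, 384 and 1058 in intermediate progenitors, 3328, 614 and 2146 in neuron clusters, 55, 3 and 72 in the GABAergic lineage and 16, 142 and 67 in Cajal-Retzius cells. A class of under 50 cells in a library was not used on its own, and the 114 vascular and microglial cells of the 3 libraries were pooled for the share of cells with a UMI. The other clusters, choroid plexus among them, held 6, 1594 and 136 cells of the 3 libraries. In the library labelled E16 these were 32.0% of all cells, and they are in none of the classes used. The cortical factor Emx1 stood at 82.4, 162 and 142 CPM (UMIs of the gene per 1000000 UMIs of the class) in radial glia of the 3 libraries.

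Genes that mark developmental stage did not follow the order of the labels. Hmga2, which falls with age in cortical stem cells, was at 11.5, 233 and 20.7 CPM in radial glia of the libraries labelled E14, E16 and E18, and Aldoc, which rises towards gliogenesis, was at 719, 15.2 and 239. Embryonic globins were 2.57%, 67.4% and 22.0% of globin UMIs. By Hmga2, Aldoc and the globins the library labelled E16 resembles the earliest stage and that labelled E14 the latest. Of the other stage genes looked at, Ccnd1, an early one, was lowest in the library labelled E18 (67.8, 254 and 46.0 CPM). The rest kept the order of Hmga2 or Aldoc. Each value below therefore belongs to "the library labelled" with a day, and no change with age is read from it. The neuron clusters of the 3 libraries were also different clusters. Each was at least 97.5% from 1 library, and that labelled E16 was 1 cluster (number 12), left unnamed because markers of Cajal-Retzius cells were among its leading genes, which were headed by Calb1 and Calb2. It had 14 of 22 excitatory neuron markers raised, and where neurons of the library labelled E16 are named below, this cluster is meant, not a settled class.

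Of the 47 genes, 16 reached 20 CPM in at least 1 of the classes used and 21 reached 5 CPM in none of them. Gabra6, Gabrp and Gabrr3 had no UMI in any class. Levels are given in CPM throughout. Because only the 3′ end of a transcript is counted, and its annotation differs between genes, levels are compared for the same gene between classes or libraries, not between genes. The plot of levels by class shows the main pattern. A small set of GABA-A subunits stood high in radial glia, a different set stood high in neurons, and separate glutamate receptor genes marked GABAergic and Cajal-Retzius cells.

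**Figure D1:**
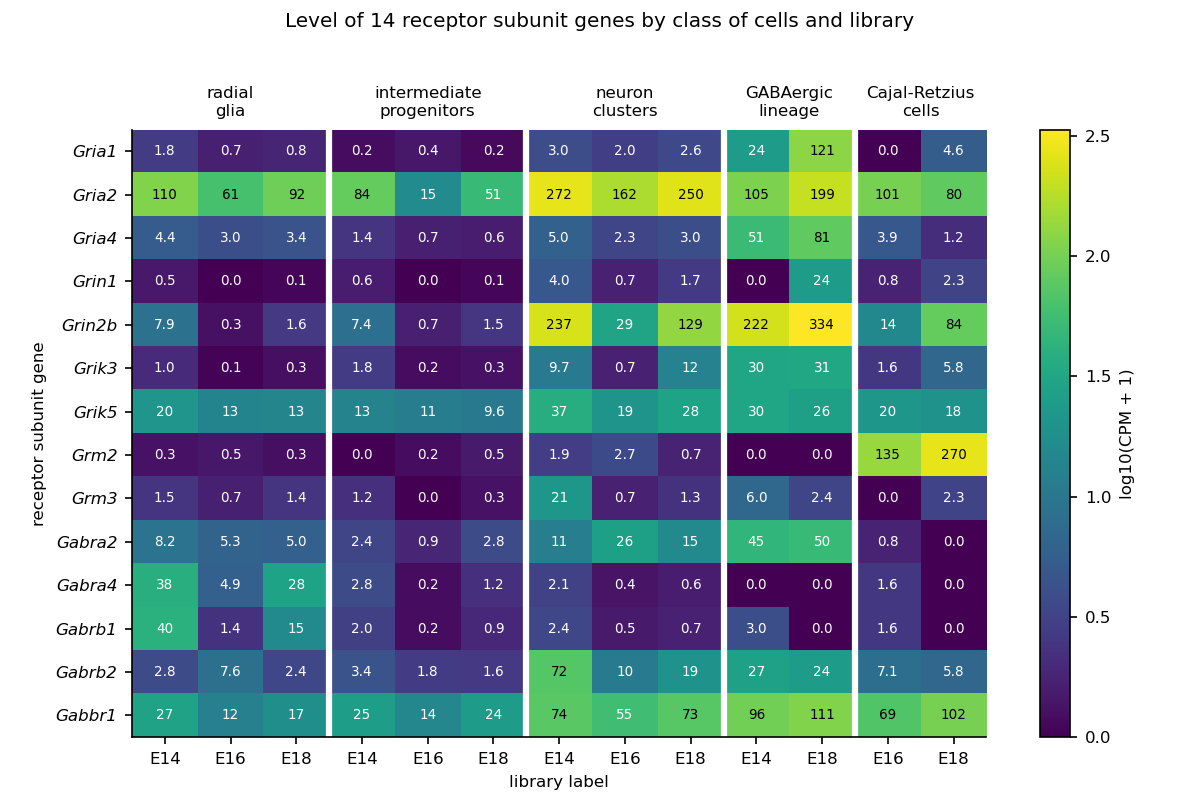
Level of 14 of the 16 genes that reached 20 CPM in a class, by class (column groups) and library label (columns), with the value printed in each field and colour on a log10 scale. Gabra4 and Gabrb1 are highest in radial glia of the libraries labelled E14 and E18, Grm2 in Cajal-Retzius cells, and Gria1 and Gria4 in the GABAergic lineage.

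Gabrb1, Gabra4 and Gabrg1, GABA-A subunit genes that were higher in radial glia than in neurons in the libraries labelled E14 and E18, are neighbours. In the RefSeq annotation of rat assembly GRCr8 they lie on chromosome 14 with Gabra2, in the order Gabrb1, Gabra4, Gabra2 and Gabrg1, with Cox7b2 between members of the group. Since these neighbours stood high in the same class, the RefSeq windows of 300 bases around their starts (250 before, 50 after) are shown with that of Gabrb2. This beta subunit gene on chromosome 10 was higher in neurons than in radial glia of the libraries labelled E14 and E18. The windows are written 5′ to 3′ on the gene's strand with CpG dinucleotides in capitals.
Gabra4 (chr14:36944497-36944796, plus strand): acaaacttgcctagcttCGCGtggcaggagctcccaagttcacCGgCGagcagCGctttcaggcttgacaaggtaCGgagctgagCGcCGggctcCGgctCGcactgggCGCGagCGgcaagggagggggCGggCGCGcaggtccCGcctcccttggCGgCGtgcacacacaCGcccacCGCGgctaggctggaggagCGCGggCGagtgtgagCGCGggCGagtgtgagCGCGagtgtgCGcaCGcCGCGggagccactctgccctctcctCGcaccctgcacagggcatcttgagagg
Gabrb1 (chr14:36902844-36903143, minus strand): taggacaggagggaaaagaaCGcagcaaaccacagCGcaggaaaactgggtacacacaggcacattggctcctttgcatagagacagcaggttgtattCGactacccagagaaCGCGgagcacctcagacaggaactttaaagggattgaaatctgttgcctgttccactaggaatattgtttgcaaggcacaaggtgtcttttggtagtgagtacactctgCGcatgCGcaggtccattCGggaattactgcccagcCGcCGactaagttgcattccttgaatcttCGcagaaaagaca
Gabrg1 (chr14:37750042-37750341, plus strand): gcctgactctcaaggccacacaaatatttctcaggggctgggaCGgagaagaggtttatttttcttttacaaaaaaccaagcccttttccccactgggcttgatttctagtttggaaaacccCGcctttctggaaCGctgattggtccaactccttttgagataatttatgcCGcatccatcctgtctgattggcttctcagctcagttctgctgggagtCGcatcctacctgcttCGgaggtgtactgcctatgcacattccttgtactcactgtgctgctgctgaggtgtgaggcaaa
Gabrb2 (chr10:27439543-27439842, plus strand): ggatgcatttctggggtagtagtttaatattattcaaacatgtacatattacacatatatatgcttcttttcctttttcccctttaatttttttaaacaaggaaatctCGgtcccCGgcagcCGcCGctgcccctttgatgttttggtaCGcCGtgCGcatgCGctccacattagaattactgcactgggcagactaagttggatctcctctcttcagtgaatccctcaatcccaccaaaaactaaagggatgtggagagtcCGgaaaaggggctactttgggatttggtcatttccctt
The Gabra4 window has 35 CpG and 70.7% G or C, against 11 and 49.3% for Gabrb1, 6 and 48.7% for Gabrg1, and 9 and 44.0% for Gabrb2. The median over all 33469 windows of the table is 7 CpG and 51.7% G or C, so the neighbours that were high in radial glia do not share the CpG density of Gabra4. Windows were found for 30 of the 47 genes. The RE1 element bound by the repressor REST was searched on both strands as its left part TTCAGCAC and its right part GGACAGCG, which occur in 1.02% and 1.21% of all windows and in 0 of the 30. The E-box CAGATG, a letter sequence of proneural factors, occurs in 16.6% of all windows and in 4 of the 30 (13.3%), none of them printed here. A missing match says only that these letters are not in this window.

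Gabra4, an alpha subunit best known from extrasynaptic receptors, was higher in radial glia than in neurons of each library. Its level in radial glia was 38.3 (95% Poisson interval 33.6 to 43.6), 4.90 (4.19 to 5.68) and 28.0 (26.1 to 30.1) CPM in the libraries labelled E14, E16 and E18. In neurons it was 2.07, 0.359 and 0.602, from 83, 2 and 13 UMIs, and in intermediate progenitors 2.79, 0.220 and 1.18. Radial glia were therefore 18.6-fold (14.4 to 24.1) above neurons in the library labelled E14 and 46.6-fold (27.1 to 87.9) in that labelled E18. In the library labelled E16 the ratio was 13.6 (3.72 to 114), at lower levels in both classes. In the library labelled E16 the radial glia value was 7.83-fold below that of the library labelled E14 (6.41 to 9.59).

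Gabrb1, a beta subunit, followed the same order with a wider range. Radial glia held 40.5 (35.6 to 45.8), 1.36 (1.00 to 1.80) and 14.9 (13.5 to 16.5) CPM in the libraries labelled E14, E16 and E18. Neurons held 2.44, 0.538 and 0.694. The excess in radial glia over neurons was 16.6-fold (13.1 to 21.2) in the library labelled E14 and 21.5-fold (12.9 to 38.8) in that labelled E18, and the gap between radial glia of the libraries labelled E14 and E16 was 29.8-fold (21.8 to 41.5). Gabrg1, a gamma subunit below 20 CPM and named after its values were seen, stood at 13.6, 2.09 and 4.25 in radial glia and at 0.498, 1.08 and 0.139 in neurons. Its radial glia level in the library labelled E14 was 27.3-fold (16.6 to 47.0) that of neurons. All 3 genes were thus highest in radial glia of the library labelled E14 and lowest in those of the library labelled E16.

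Their neighbour Gabra2, an alpha subunit common in embryonic neurons, did not keep to radial glia. Its radial glia levels were 8.19, 5.35 and 4.96 CPM, and its neuron levels 11.0 (9.98 to 12.1), 26.2 (22.1 to 30.8) and 15.3 (13.7 to 17.1). The ratio of neurons to radial glia was 1.34 (0.999 to 1.83) in the library labelled E14, which counting error alone does not separate from equality, 4.90 (3.92 to 6.11) for the library labelled E16 and 3.09 (2.52 to 3.81) for E18. With a stricter cell filter (at least 2000 genes, at most 5% mitochondrial UMIs) the log2 ratios were -0.72, 0.88 and 1.01, so that the library labelled E16 was then under 2-fold and that labelled E14 below equality. That filter kept 322, 3554 and 2617 cells of the 3 libraries, so its values for the library labelled E14 rest on a small part of that library.

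**Figure D2:**
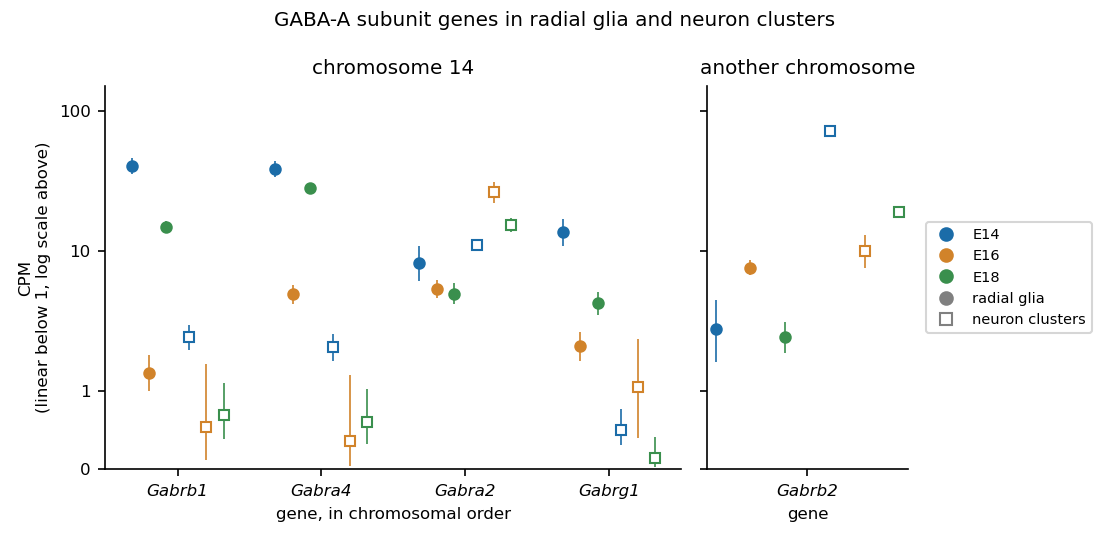
Levels of GABA-A subunit genes in radial glia (filled circles) and neuron clusters (open squares), for the chromosome 14 neighbours in GRCr8 and Gabrb2, coloured by library label, with 95% Poisson intervals and an axis that is linear below 1 and logarithmic above. Gabrb1, Gabra4 and Gabrg1 lie higher in radial glia, and Gabrb2 in neurons, in the libraries labelled E14 and E18.

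The sum over the neighbourhood restates these levels, since the group was described for them. The 4 chromosome 14 genes made up 87.7% (85.1 to 90.1, exact Clopper-Pearson interval), 39.4% (36.7 to 42.2) and 79.0% (77.1 to 80.9) of all GABA-A UMIs in radial glia of the libraries labelled E14, E16 and E18. In neurons they made up 6.72%, 17.3% and 12.4%. The 3 neighbours on the X chromosome, Gabra3 among them, made up 1.43%, 17.3% and 6.09% in radial glia and 3.71%, 4.42% and 5.80% in neurons, and sums over the other neighbourhoods are not reported here.

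The alpha and beta make-up of radial glia in the library labelled E16 differed from that in both others. Gabra4 made up 79.1% (74.0 to 83.5), 30.6% (26.8 to 34.6) and 76.7% (73.9 to 79.3) of alpha subunit UMIs in radial glia of the libraries labelled E14, E16 and E18, and Gabra3, an alpha subunit gene on the X chromosome, 2.70%, 32.4% and 8.53%. Gabrb1 made up 82.6% (77.8 to 86.7), 8.70% (6.48 to 11.4) and 62.8% (58.9 to 66.6) of beta subunit UMIs. Gabrg1 made up 80.6%, 91.4% and 89.0% of the gamma UMIs of radial glia. The alpha and beta shares in radial glia of the library labelled E16 were thus mixed, while most gamma UMIs were of Gabrg1 in each library. Shares with predicted doublets kept and under the other alternatives are given in the closing section.

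Intermediate progenitors had little of these genes. Gabra4 was at most 2.79 and Gabrb1 at most 1.99 CPM there, both in the library labelled E14.

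Gabrb2, a beta subunit, had unlike levels in the 3 libraries. Neurons held 72.1 (69.5 to 74.8), 10.1 (7.59 to 13.1) and 19.0 (17.2 to 20.9) CPM, and radial glia 2.79 (1.62 to 4.46), 7.61 (6.73 to 8.58) and 2.44 (1.89 to 3.11). The ratio of neurons to radial glia in the library labelled E16 was 1.32 (0.972 to 1.77). The radial glia level in the library labelled E14, from 17 UMIs, was 3.86% of the neuron level, below the 9.19% of the summed neuronal tracer genes described further on, and is not read as expression. It was 11.8 CPM when predicted doublets were kept. Between the libraries labelled E16 and E14 the neuron level was 7.17-fold lower.

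Among AMPA receptor genes Gria2, whose edited subunit makes these channels impermeable to calcium, had the largest share of UMIs in radial glia and neurons. Its level was 110.1 (102 to 119), 61.3 (58.8 to 64.0) and 92.5 (88.9 to 96.2) CPM in radial glia of the libraries labelled E14, E16 and E18. Intermediate progenitors held 83.9, 15.4 and 51.0, below radial glia in each library. Neurons held 272 (267 to 277), 162 (152 to 173) and 250.2 (244 to 257), which is 2.47-fold, 2.64-fold and 2.71-fold radial glia. With the stricter cell filter the log2 ratios were 0.81, 0.60 and 1.10, under 2-fold in the libraries labelled E14 and E16. The first is from the 322 cells kept in its library. Gria2 made up 93.6% to 94.9% of AMPA receptor UMIs in radial glia and 94.7% to 95.7% in neurons, so that its share hardly differed between these classes.

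Gria1 and Gria4 were low there and high in the GABAergic lineage. Gria1, the AMPA subunit tied to activity-dependent trafficking, was 24.0 (10.4 to 47.4) and 121 (90.0 to 159) CPM in GABAergic cells of the libraries labelled E14 and E18, from 8 and 51 UMIs, against 2.99 and 2.59 in their neuron clusters. Gria4 was 51.1 and 80.6 against 5.03 and 3.01. Gria2 made up 56.5% and 49.4% of AMPA receptor UMIs in these cells. The class had 55 and 72 cells, and 11 of 11 of its markers had UMIs in both libraries.

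Among NMDA receptor genes Grin2b, the glutamate-binding subunit of embryonic receptors, carried most UMIs in neurons. Its neuron level was 237 (232 to 242), 28.5 (24.3 to 33.3) and 129 (125 to 134) CPM in the libraries labelled E14, E16 and E18. Radial glia held 7.86, 0.311 and 1.62 and intermediate progenitors 7.38, 0.660 and 1.52. No fold is given over radial glia, since their level, as a percent of that in neurons, was below the percent of the neuronal tracer genes described further on. With predicted doublets kept, the radial glia level was 34.0 and 8.14 CPM in the libraries labelled E14 and E18. GABAergic cells held 222 and 334 in the libraries labelled E14 and E18, and Cajal-Retzius cells 14.2 and 84.2 in those labelled E16 and E18. Grin1, the subunit present in every NMDA receptor, was between 0 and 4.01 CPM in radial glia, intermediate progenitors and neuron clusters and reached 23.7 only in GABAergic cells of the library labelled E18, from 10 UMIs. Grin2a, the subunit known to join receptors after birth, stayed at or below 4.68.

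Grin2b also differed along the neuron clusters. Clusters were ordered by the summed level of 12 neuronal genes (Stmn2, Gap43, Snap25 and others, called tracers here), which do not include receptor genes. In the library labelled E14 it was 14.3, 71.6, 241, 262 and 440.4 CPM in clusters with 4286, 6601, 9501, 10095 and 10275 CPM of summed tracers. In the library labelled E18 it was 4.28, 39.6 and 324 in clusters with 4082, 7051 and 11788. The cluster of the library labelled E16, at 8022 CPM of summed tracers, held 28.6, below the clusters on either side of it in both other libraries. Within each of these 2 libraries the order of Grin2b was thus that of the tracers.

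Gabrb2 did not follow the order of the tracers in the library labelled E14. It was 10.4, 40.3, 14.6, 110.4 and 102 CPM along the clusters of the library labelled E14 and 5.14, 5.88 and 44.3 along those of the library labelled E18. The cluster of the library labelled E14 at 14.6 was number 21, led by Crym and Sema3c. Gabra2 differed between the 2 clusters of that library with most tracers, at 23.2 in cluster 10 and 4.12 in cluster 9. Grik3, a kainate subunit, was 27.6 in cluster 9 of that library and 33.9 in cluster 15 of the library labelled E18 and at most 3.13 in the other 7 clusters.

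**Figure D3:**
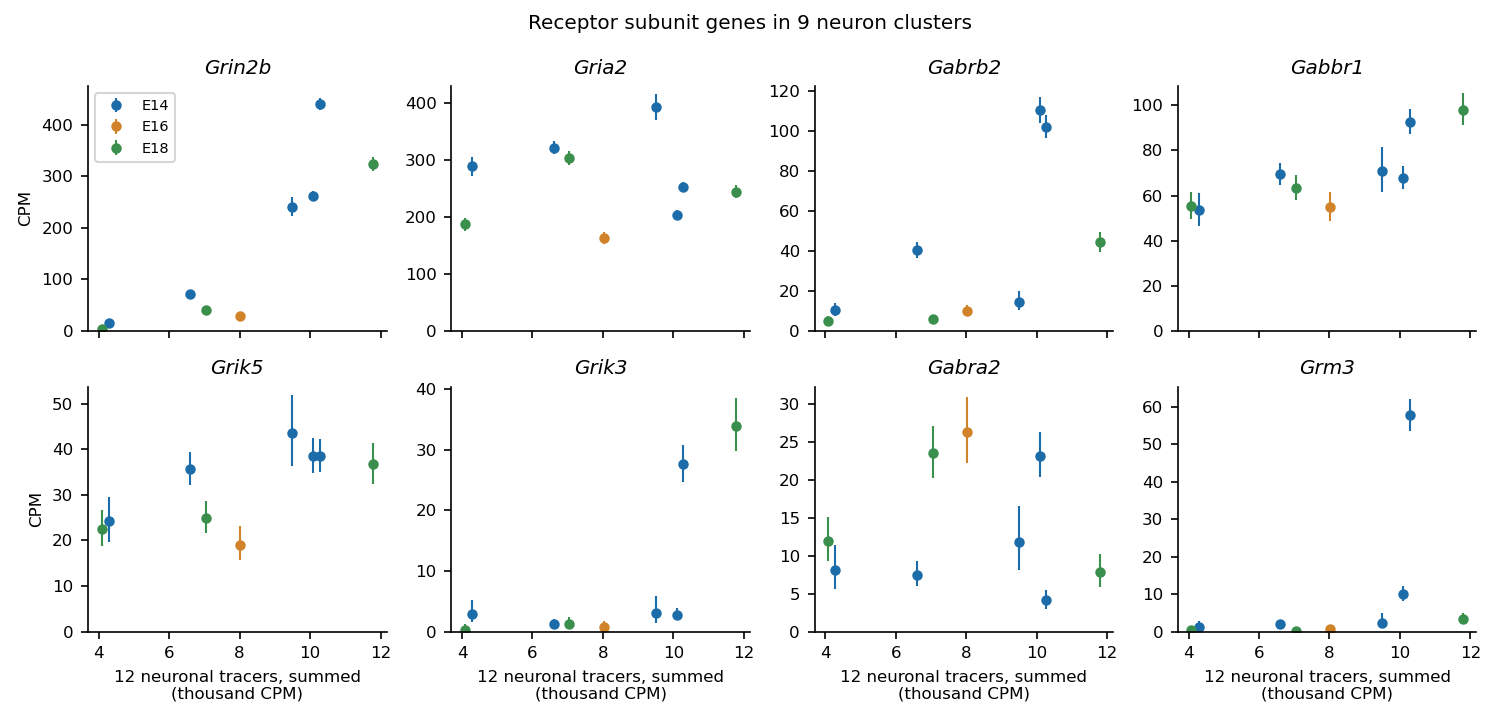
Levels of 8 receptor genes in 9 neuron clusters against the summed level of 12 neuronal tracer genes, coloured by library label, with 95% Poisson intervals. Grin2b runs from 14.3 to 440.4 CPM in the library labelled E14 and from 4.28 to 324 in that labelled E18, while Gria2 stays between 162 and 393 over the 9 clusters.

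Of the kainate receptor genes Grik5, a high-affinity subunit that works in heteromers, was the one most evenly spread. It stood at 19.7 (16.3 to 23.5), 12.7 (11.6 to 13.9) and 13.1 (11.7 to 14.5) CPM in radial glia, 12.6, 10.8 and 9.60 in intermediate progenitors and 36.7, 19.2 and 28.3 in neurons. The ratio of neurons to radial glia was 1.87, 1.51 and 2.16, and the last was under 2-fold in 6 alternatives, at log2 ratios of 0.80 to 0.97. Grik3 was 9.74, 0.718 and 12.3 in neurons and 30.0 and 30.8 in GABAergic cells of the libraries labelled E14 and E18. Grik4, named after its values were seen, was higher in intermediate progenitors (10.8, 5.06 and 7.92) than in radial glia (4.10, 0.821 and 2.29) or neurons (2.71, 3.05 and 3.05) of the same library, though in that labelled E16 the intervals of intermediate progenitors (3.21 to 7.59) and neurons (1.78 to 4.88) overlap. The 2 delta receptor genes stayed at or below 3.29 CPM.

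Of the 8 metabotropic receptor genes, 2 reached 20 CPM in a class used and 4 reached 5 CPM in none. Grm2, an inhibitory presynaptic receptor, was 135 (116 to 157) and 269.9 (236 to 307) CPM in Cajal-Retzius cells of the libraries labelled E16 and E18, against 2.69 and 0.741 in their neuron clusters. Cajal-Retzius cells had UMIs of 8 of 9 and 9 of 9 markers of their list in these libraries. Grm3, an inhibitory receptor known from cortical neurons and astrocytes, was 20.6 (19.2 to 22.1), 0.718 (0.196 to 1.84) and 1.34 (0.899 to 1.93) in neurons of the libraries labelled E14, E16 and E18, and 57.7 (53.5 to 62.2) in cluster 9 alone. Grm5 was 12.5, 1.08 and 2.78 in neurons and 31.1 in cluster 9. Cluster 9 had Nts, Cdh13 and Snap25 among its leading genes and the highest Grin2b level of the 9 neuron clusters.

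Gabbr1, the GABA-binding subunit of the GABA-B receptor, was 74.4, 54.7 and 72.8 CPM in neurons, 27.2, 11.7 and 16.9 in radial glia and 25.1, 13.6 and 23.7 in intermediate progenitors. Neurons were 2.73-fold (2.34 to 3.22), 4.68-fold (4.03 to 5.44) and 4.30-fold (3.87 to 4.78) above radial glia. With the stricter cell filter, which kept 322 cells of the library labelled E14, the log2 ratio there was 0.80, under 2-fold. Gabbr2, its obligate partner, was at 8.72, 2.87 and 2.92 in neurons and at most 0.655 in radial glia.

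Free RNA from neurons can put neuronal UMIs into radial glia, so the member levels were set beside the tracers. The summed tracers in radial glia were 9.19%, 2.30% and 3.59% of those in neurons of the libraries labelled E14, E16 and E18. Gria2 in radial glia was 40.5%, 37.8% and 37.0% of its neuron level, Gabbr1 36.6%, 21.4% and 23.3%, and Grik5 53.5% and 46.2% in the libraries labelled E14 and E18, all above the tracer sum. Single tracer genes reached 18.1%, 8.81% and 27.1%, so Gabbr1 in the library labelled E18 was within the range of single tracers. Gabbr1 is also set beside vascular and microglial cells below. Grin2b, at 3.32%, 1.09% and 1.25%, was below the tracer sum in each library, and its radial glia level is not read as expression.

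**Figure D4:**
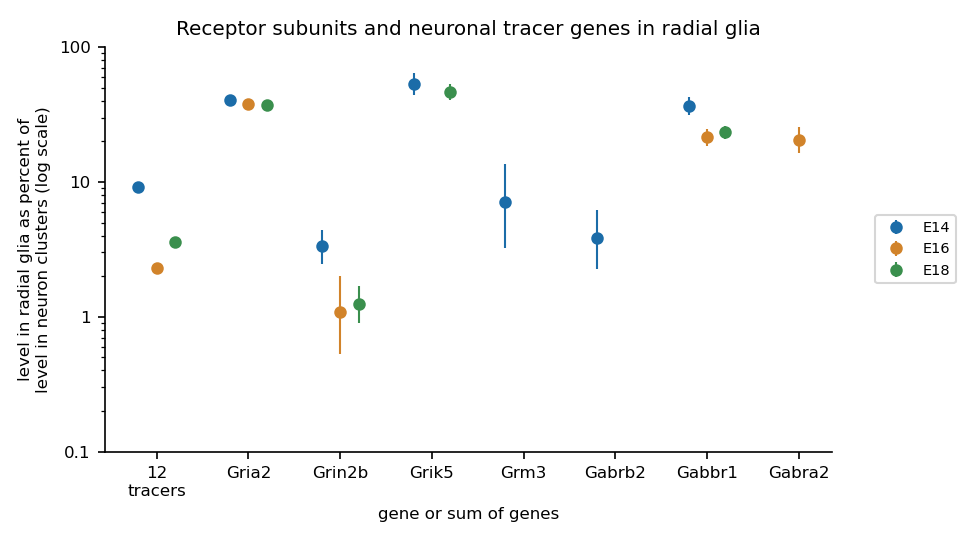
Level in radial glia as a percent of the level in neuron clusters of the same library (log axis), for the sum of 12 neuronal tracer genes and for receptor genes with at least 20 CPM in neurons of that library, coloured by library label, with 95% intervals. Gria2, Grik5 and Gabbr1 lie above the tracer sum and Grin2b below.

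The share of cells with a UMI was compared after thinning every cell to 2000 UMIs, which left out at most 13 cells of a class and library. Of 112 vascular and microglial cells of the 3 libraries together, with a median of 14976.5 UMIs before thinning, 0 had an NMDA receptor UMI, which allows a share of up to 3.24% at the thinned depth, and 0.893% a GABA-A UMI. Before thinning these shares were 7.89% and 9.65%. An AMPA receptor UMI was in 8.93% (4.37 to 15.8) of these cells, but 7, 4 and 9 of their 26, 12 and 14 AMPA UMIs in the libraries labelled E14, E16 and E18 were of Gria3, so they are not used as a background for AMPA genes. In neurons, with median depths of 11014, 8557 and 8998.5 UMIs, the AMPA shares were 43.2%, 25.0% and 37.0%, the NMDA shares 28.1%, 5.42% and 14.9% and the GABA-A shares 30.6%, 21.0% and 19.9%. In radial glia, with median depths of 12789.5, 14664 and 12395 UMIs, the AMPA shares were 21.8%, 10.9% and 17.1% and the GABA-A shares 19.9%, 5.97% and 11.4%. Their GABA-B shares were 5.26%, 1.79% and 4.15%, each within the interval of the vascular and microglial cells. Intermediate progenitors had AMPA shares of 15.2%, 3.68% and 8.99%. Before thinning the AMPA shares were 67.9%, 51.3% and 59.7% in radial glia and 88.9%, 56.4% and 80.9% in neurons, and 22.8% in vascular and microglial cells.

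Counts of members past 2-fold between neurons and radial glia cover only members with at least 5 CPM in the mean of both classes, 15, 9 and 12 of 47 in the libraries labelled E14, E16 and E18, and do not describe all members. In the library labelled E14, 10 members were at least 2-fold higher in neurons than in radial glia, beside 13.5% of all genes so measured, and 3 were at least 2-fold lower (19.7% of all genes). In that labelled E16, 6 were higher (14%) and 0 lower (16.4%), and in that labelled E18, 10 were higher (14%) and 2 lower (17.3%). The median log2 ratio of these members, with 1 CPM added to both levels, was 2.08, 2.10 and 1.75, against -0.19, -0.07 and -0.08 over all genes. With no filter on low levels, over 42 to 44 members, it was 0.31, 0.43 and 0.34.

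Between neurons of different libraries, 8 of 14 members were at least 2-fold lower in that labelled E16 than in that labelled E14. The 9 markers of Cajal-Retzius cells summed to 38.7, 691 and 156 CPM in the neuron clusters of the libraries labelled E14, E16 and E18, with UMIs of 8, 9 and 8 of them, Ebf2 at 0 in the first and Lhx5 in the last. Their part in the result was not tested. Against the library labelled E14, 1 of the 14 was at least 2-fold higher in that labelled E16 (6.10% of all genes) and 8 were lower (5.90%), with a median log2 ratio of -1.09. Over the alternatives the count of lower members ran from 2 to 13, and with no filter on low levels the median over 43 members was -0.14. The 1 higher gene was Gabra2, and Grm3 and Grin2b had the lowest log2 ratios, -3.65 and -3.01. For the library labelled E18 over E16, 3 of 11 were higher (3.16%) and 0 lower (3.10%), with Grik3 the highest at 2.95. For E18 over E14, 0 of 14 were higher (2.02%) and 4 lower (2.07%), namely Grm3, Gabrb2, Grm5 and Gabbr2. These 3 comparisons share libraries. When only the clusters nearest in tracer level were compared, an alternative added after seeing the data, the median for E18 over E16 became -0.12 in place of 0.54 and the Grin2b log2 ratio 0.47 in place of 2.14.

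Between radial glia the members with at least 5 CPM were 10, 8 and 9. For the library labelled E16 over E14, 1 was at least 2-fold higher (2.36% of all genes), Gabrb2, and 5 were lower (7.43%), namely Gabrb1, Gabra4, Gabrg1, Gabbr1 and Grik2. The Gabrb2 log2 ratio of 1.19 became -0.48 with predicted doublets kept and 0.70 with a pseudocount of 5 CPM, and that of Gabbr1, -1.15, was under 2-fold at -0.88 with the stricter cell filter and -0.95 with that pseudocount. For E18 over E16, 2 were higher (2.21%), Gabrb1 and Gabra4, and 1 lower (0.631%), Gabrb2, at -0.76 with a pseudocount of 5 CPM. For E18 over E14, 0 were higher (1.00%) and 2 lower (3.19%), Gabrb1 and Gabrg1. The median log2 ratios were -0.93, 0.27 and -0.55, against -0.10, 0.06 and -0.06 over all genes. With no filter on low levels, over 41 to 43 members, they were -0.33, 0.05 and -0.28.

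Partner proteins of the receptors were followed through 5 lists of 57 different genes. Their counts are read beside 13.5%, 14% and 14% of all measured genes at least 2-fold higher in neurons of the libraries labelled E14, E16 and E18, and 19.7%, 16.4% and 17.3% at least 2-fold lower. With 1 to 16 measured genes a list, nothing particular to a list is read from them. Of 15 AMPA and kainate auxiliary subunits, 3 of 7, 4 of 8 and 1 of 5 measured genes were at least 2-fold higher in neurons than in radial glia of the libraries labelled E14, E16 and E18, and 1, 0 and 1 lower. Cnih2, a cornichon that escorts AMPA receptors, was higher in neurons, at 399, 245 and 285 CPM against 103, 50.5 and 57.4 in radial glia. Its relative Cnih1 was lower in neurons of the libraries labelled E14 and E18 (28.1 against 71.1, and 39.7 against 85.6). Of 20 excitatory postsynaptic scaffolds, 8 of 16, 5 of 15 and 6 of 15 were higher and 1, 3 and 3 lower. Dlg2, a scaffold of NMDA receptors, was 49.3 against 2.62 in the library labelled E14, Shank1 was 54.2 against 2.97 in that labelled E18, and Homer2 was 13.5 against 55.6 there. The adhesion protein gene Nlgn1 was lower in neurons of the libraries labelled E16 and E18, at 21.2 against 56.1 and 21.3 against 55.6.

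Of 10 inhibitory postsynaptic proteins, 4 of 8, 4 of 8 and 2 of 7 were at least 2-fold higher in neurons and 0 lower. Among 8 genes of transmitter uptake and breakdown, 2 of 5, 1 of 3 and 2 of 4 were higher and 1, 0 and 0 lower. The glutamate transporter Slc1a2, which in adult brain is an astrocyte gene, was 80.9 in neurons of the library labelled E16 against 0.792 in its radial glia. Of 5 glycine receptor genes 1 was measured in each library, Glra2, at 27.5, 18.8 and 13.9 in neurons and 1.47, 0.0849 and 0.225 in radial glia.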

How the data were processed

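Single-cell 3′ RNA was measured in 3 wild-type rat embryonic cortex libraries, labelled E14, E16 and E18. The values are raw UMI counts per gene and barcode, deposited by the authors as matrices made with Cell Ranger 6.0.1, per the file headers and the submitters' processing notes, which also name the build mRatBN7.2. Here cells with at least 1000 genes and at most 10% mitochondrial UMIs were kept, and predicted doublets were removed with the Scrublet method in scanpy 1.11.5, at 0.8% per 1000 barcodes. The 3 libraries were clustered together without the members or companion genes (2000 variable genes, 30 principal components, 15 neighbours, Leiden resolution 1), giving 27 clusters, 4 of them unnamed. For each class of a library, counts were added up and scaled to 1000000 (CPM). Ratios are log2 of the level plus 1 CPM, over genes with a mean of at least 5, and a gene is called at a fold of 2 with no test. Free RNA was not removed. Some members and list genes that entered the counts and sums are not reported here by name.

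A class name needed at least 50% of that class's markers, and at least 3, raised, and was dropped where a rival class led. A raised marker was at least 1.2-fold over the mean of the 3 whole libraries, with a UMI in at least 20% of the cluster's cells. This rule was settled after the clusters were seen, with 121 markers of 14 classes. The neuron group holds every cluster with most excitatory neuron markers raised, 2 unnamed ones included, in place of the named clusters that the design foresaw. The members and lists were chosen with earlier results of these data known. Members with at least 20 CPM in 1 class and library of at least 50 cells are named, others only after their values were seen, and of each companion list the genes with the largest ratios and a mean of at least 20. Gene order and promoter windows come from RefSeq tables of GRCr8, another build than that of the files, used for names, neighbours and sequence only. The scripts were tested on simulated data. Alternatives changed the filters, doublet rate, clustering, scaling and pseudocount. Intervals are exact Poisson for levels and exact Clopper-Pearson for shares, at 95%.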

Additional observations from a re-analysis of the deposited data

Results flagged for a closer look

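Gabrb2 differed in opposite directions in the 2 main classes between the libraries labelled E16 and E14. Its log2 ratio, E16 over E14, was -2.73 in neurons and 1.19 in radial glia, and the difference was not tested because each label has 1 library. The radial glia value rests on 17 and 269 UMIs in the libraries labelled E14 and E16 and became -0.48 when predicted doublets were kept. The level in radial glia of the library labelled E14 was 3.86% of that in neurons, below the 9.19% of the summed neuronal tracers, and is not read as expression. The part of doublets in the value was not tested further.

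Grm8, a metabotropic glutamate receptor gene, was present in a choroid plexus cluster that entered none of the comparisons. It held 35.1 CPM (95% Poisson interval 29.7 to 41.1) over 194 cells, from 152 UMIs, and at most 3.15 in any of the classes used. In the libraries labelled E16 and E18, with 142 and 52 such cells, it stood at 36.3 (29.4 to 44.2) and 33.2 (24.9 to 43.3). The cluster was led by Ttr, the transthyretin gene of choroid plexus epithelium. Gria2 was 114 and 112 CPM in the same cells.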

How the results depend on the processing

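Comparisons between labels have no replicate because each label has 1 library, and no paired test over the libraries was run. Values are median log2 ratios over the members measured, first for neurons over radial glia in the libraries labelled E14, E16 and E18, where they were 2.08, 2.10 and 1.75. The stricter cell filter (at least 2000 genes, at most 5% mitochondrial UMIs) gave 0.80, 0.88 and 1.34, and -0.05 for neurons, E18 over E14. It kept 322, 3554 and 2617 cells of the libraries labelled E14, E16 and E18. A pseudocount of 5 CPM gave 1.30, 1.59 and 1.54, and -0.71 for radial glia, E16 over E14. With no filter on low levels, which lets in 41 to 44 members, the values were 0.31, 0.43 and 0.34, with -0.14, 0.10 and -0.10 for neurons (E16 over E14, E18 over E16, E18 over E14) and -0.33 and 0.05 for radial glia (E16 over E14, E18 over E16). Keeping predicted doublets gave 1.57 in the library labelled E14 and 1.54 in E18. A clustering resolution of 0.5 gave 1.66 in E18, and one of 2 gave 1.71 in E14. Clustering the libraries apart gave -0.72 for neurons, E16 over E14. The mean of per-cell CPM gave 1.33 in E14, 1.87 in E16 and 0.57 for radial glia, E18 over E16. Neuron clusters nearest in tracers, added after seeing the data, gave -0.12 for E18 over E16 and -0.50 for E18 over E14. The cause was not tested.

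Of 83 comparisons of single named genes, 45 were past 2-fold. Of their 546 alternative values 20, in 11 comparisons, were under 2-fold, and 1 of these was reversed, Gabrb2 in radial glia, E16 over E14, at -0.48 with doublets kept. Those beyond the ones given beside their results include Gabra2 in neurons, E16 over E14, at 0.97 with a pseudocount of 5 CPM, Gabbr1 in radial glia, E16 over E14, at -0.88 under the stricter filter and -0.95 with that pseudocount, and Gabrb2 in radial glia with that pseudocount, at 0.70 (E16 over E14) and at -0.76 when E18 is set over E16. In radial glia of the libraries labelled E14, E16 and E18, the Gabra4 share of alpha UMIs ran from 74.2% to 79.6%, 28.5% to 35.7% and 75.5% to 79.3% over the alternatives, the Gabrb1 share of beta UMIs from 60.6% to 87.1%, 7.53% to 10.7% and 56.2% to 67.0%, and the Gabrg1 share of gamma UMIs from 58.3% to 85.1%, 64.7% to 95.8% and 64.3% to 90.1%. With named neuron clusters only, the library labelled E16 gave no value, since its 1 neuron cluster is unnamed. Unnamed clusters whose best marker class was radial glia were added in another alternative. Radial glia of the library labelled E16 then held 4.26 CPM of Gabra4 and 1.08 of Grin2b, in place of 4.90 and 0.311.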
